A study of Mus musculus with 12 samples.

Results

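Transcripts of 8 factors that hepatocytes or stressed liver cells secrete into blood were followed in whole mouse liver after polymicrobial sepsis. The genes were Fgf21, Gdf15, Angptl4, Angptl8, Inhbe, Inhbc, Fst and Lect2, taken by symbol from the 25611 genes of the count table. All 8 were among the 13190 genes that passed the low-count filter. The 12 livers came from male C57BL6J (C57BL/6J) mice aged 8 to 10 weeks, 4 in each of 3 groups. Sham mice had the abdomen opened without injury to the cecum. CLP mice underwent cecal ligation and puncture, which releases gut bacteria into the peritoneum. CLP+DCA mice underwent the same injury and were injected intraperitoneally with dichloroacetate (DCA), an inhibitor of pyruvate dehydrogenase kinases, at 25 mg/kg at 24 hr post-surgery. All mice received saline under the skin, and all livers were taken at 30 hr post-surgery, 6 hr after the time of injection. Whether sham and CLP mice were injected with a vehicle is not given in the sources used here. No group was sham-operated and given DCA, so the action of DCA without CLP was not measured. The comparisons therefore ask how each transcript differed between the liver of sham and septic mice, and between septic mice with and without DCA.

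Hepatokines are proteins made by the liver that act on other tissues. Most of these 8 are known to follow feeding, fasting or cellular stress: the fasting factor PPARα and the stress factor ATF4 switch on Fgf21, ATF4 and p53 switch on Gdf15, and insulin switches on Angptl8. FGF21 acts on brain and fat, GDF15 on the hindbrain, ANGPTL4 and ANGPTL8 control the lipoprotein lipase that takes triglyceride out of blood, the products of Inhbe and Inhbc form activins that follistatin can bind, and LECT2 is a hepatocyte protein that binds receptors on vessels and immune cells.

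The libraries held 24436513 to 44266819 reads counted on genes, and levels are given in CPM, the reads of a gene relative to the size of its library after TMM scaling, a correction that lets libraries of unlike make-up be compared. All 8 hepatocyte markers were detected in all groups, as the tissue label requires. The liver of CLP+DCA replicate 3 stood apart: its median distance to the other CLP+DCA livers, the root mean square of log2 CPM differences, was 1.008, against 0.382 to 0.448 for the others of that group. The summed level of 8 neutrophil markers was 6.24 to 8.97 CPM in sham, 29.7 to 39.7 CPM in CLP, 6.16 to 13.7 CPM in the other 3 CLP+DCA mice and 49.0 CPM in replicate 3, and the single marker Camp had no read in sham. Together S100a8 and S100a9 took 73.4% of this sum in CLP, and the mean was above sham in CLP for 7 of the 8 markers and below it for 1, Ly6g, at 0.823 CPM in sham and 0.459 CPM in CLP (log2 fold change −0.78, edgeR adjusted p = 0.136). The summed level of the 8 hepatocyte markers was 62610 to 81903 CPM in sham, 28780 to 45087 CPM in CLP, 51035 to 57674 CPM in the other 3 CLP+DCA mice and 26074 CPM in replicate 3. Alb, serum albumin, took 66.2% of this sum in sham. Alb fell in CLP versus sham (log2 fold change −1.11, edgeR adjusted p = 0.0463), while Hnf4a, Asgr1 and Apoa1 were at 0.052, −0.17 and −0.21. The mean was below sham in CLP for 7 of the 8 markers and above it for 1, Hnf4a, with a median log2 fold change of −0.46. Mean Cps1 went from 3367 to 1823 CPM, Cyp2e1 from 7107 to 4616 CPM and Tat from 1906 to 1518 CPM, with overlapping mice. Ttr went from 3488 to 2304 CPM without overlap. The sum of 6 cholangiocyte markers ran from 34.4 to 43.8 CPM in sham and from 62.1 to 96.3 CPM in CLP, with 213 CPM in CLP+DCA replicate 3. Together Spp1 and Sox9 took 94.3% of this sum in CLP and 97.2% in CLP+DCA. The mean was above sham in CLP for all 6 markers, with Epcam at 1.05 CPM in sham and 1.12 CPM in CLP. Krt19 ran from 0.650 to 0.827 CPM in CLP+DCA, and from 0.766 to 0.827 CPM without replicate 3. The part of these cells in the results was not tested, and in whole liver fewer cells of a type and less RNA per cell cannot be told apart. Comparisons of the members in CLP+DCA are given with and without replicate 3, and those of other genes where so stated.

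Promoter sequence was given by RefSeq (GRCm38.p6, the mm10 build) for 6 of the 8 genes, as windows from 250 bases before to 50 bases after the start of the gene, and none was used for Angptl4 and Fst. The CARE element TGATGNAA, which ATF4 binds as a dimer with C/EBP proteins, was searched on both strands. It was found in Fgf21, Angptl8 and Inhbe, and in 3.97% of all 32851 windows. The stretches below run 5′ to 3′ along the strand of each gene, with the match in capitals and 45 bases on either side. They are shown because the element is the sequence feature that these genes, whose levels follow, have in common.

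Fgf21: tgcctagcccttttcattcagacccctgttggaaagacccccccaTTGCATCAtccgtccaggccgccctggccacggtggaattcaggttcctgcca

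Inhbe: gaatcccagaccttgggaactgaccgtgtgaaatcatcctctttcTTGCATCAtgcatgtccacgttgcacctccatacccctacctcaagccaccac

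Angptl8: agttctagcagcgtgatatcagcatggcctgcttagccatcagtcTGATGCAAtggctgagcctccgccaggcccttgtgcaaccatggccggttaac

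The stretch of Fgf21 lies at chr7:45615577-45615674 on the minus strand, that of Inhbe at chr10:127351977-127352074 on the minus strand and that of Angptl8 at chr9:21835335-21835432 on the plus strand, all upstream of the transcribed part. The match begins 139 bases before the start of Fgf21, 181 bases before that of Inhbe and 130 bases before that of Angptl8. It is on the opposite strand in Fgf21 and Inhbe and on the gene's own strand in Angptl8, and in all of them the open position is C. The E-box CACGTG, a site of the carbohydrate-responsive factor ChREBP and of other helix-loop-helix proteins, was found in Fgf21 and in 1 of the windows of Gdf15, and in 7.15% of all windows. The AP-1 site TGANTCA, found in 7.81% of all windows, the ER stress element, in 0.119%, and the PPAR element, in 0.0396%, were not found in any of the members' windows. These letters are a description of the windows and say nothing of binding in these livers.

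Levels between genes were compared only as CPM per kilobase of exon, with exons from GENCODE vM21 inside the position that the table gives for each gene. In sham liver the order was Lect2 (73.3 ± 15.6 SD, n = 4), Angptl8 (64.2 ± 34.8), Inhbc (50.9 ± 5.20), Angptl4 (30.6 ± 12.2), Inhbe (23.3 ± 12.2), Gdf15 (7.42 ± 4.46), Fst (1.29 ± 0.756) and Fgf21 (0.662 ± 0.386). The ranges of neighbours in this order overlapped, except those of Inhbc, whose lowest mouse had 44.7, and Angptl4, whose highest had 41.3 CPM per kilobase. In CLP the same scale gave 78.1 ± 11.8 for Lect2, 72.8 ± 20.9 for Angptl4, 70.9 ± 5.04 for Inhbc, 30.0 ± 3.02 for Inhbe, 29.7 ± 18.3 for Angptl8, 2.97 ± 1.99 for Fgf21, 2.24 ± 0.761 for Gdf15 and 1.19 ± 0.540 for Fst. Angptl4 was thus among the most abundant of these messages in CLP, and Fgf21 was next to Gdf15 in place of last. In CLP+DCA, Angptl4 at 42.0 ± 8.63 and Gdf15 at 9.26 ± 3.45 CPM per kilobase were nearer to their sham levels.

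Among the 8 transcripts, Inhbc rose in CLP versus sham, and no other passed the test over all genes (edgeR's quasi-likelihood test, Benjamini-Hochberg FDR of 0.05). Of all genes tested, 2.78% passed, and no more is read from 1 member of 8 than its own values. The 4 CLP mice did not overlap the 4 sham mice for Fgf21, Angptl4 and Inhbc, all higher in CLP, while 26.5% of all genes did not overlap. At an unadjusted p under 0.05, Angptl4 and Inhbc were higher, beside 15.5% of all genes, and Gdf15 was lower, beside 13.1%. DESeq2 on the same 12 mice called Angptl4, Inhbc and Gdf15, beside 13.0% of all genes, and gave no p for Fgf21. In edgeR without CLP+DCA replicate 3, which is in neither group but shares the estimate of the spread, Fgf21, Gdf15, Angptl4 and Inhbc were called, beside 23.8% of all genes. The median log2 fold change of the members was 0.23 and that of all genes 0.018.

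**Figure D1:**
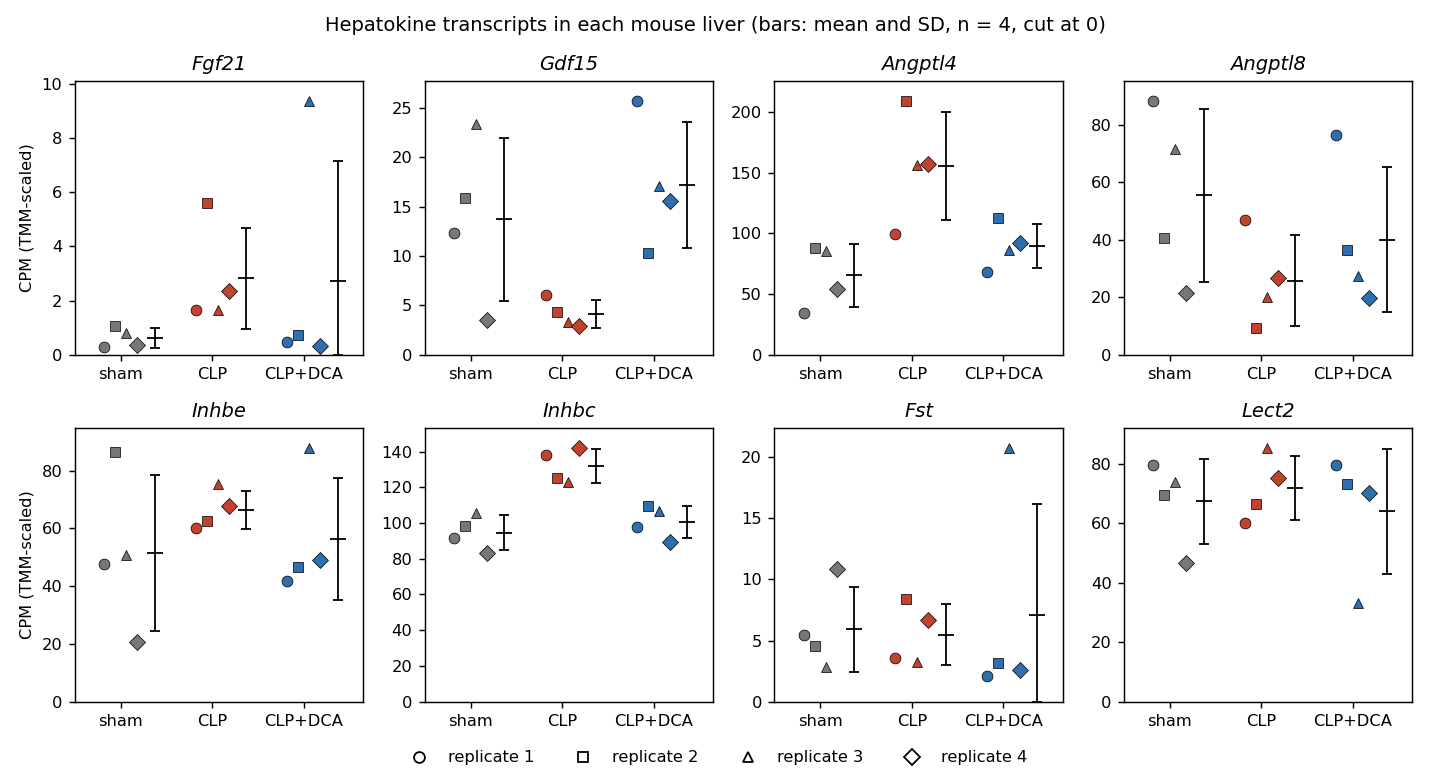
Level of each of the 8 transcripts in each liver (CPM on TMM-scaled libraries, y axis from 0), with symbols for replicates 1 to 4 and the mean with its SD (n = 4, lower bar cut at 0) beside each group. The 4 CLP mice lay above all sham mice for Fgf21, Angptl4 and Inhbc, and CLP+DCA replicate 3 (triangle) was at 9.37 CPM for Fgf21 and 20.7 CPM for Fst.

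Fgf21 encodes a fasting and stress hormone that signals through FGF receptors with the co-receptor β-Klotho. Its gene lies at chr7:45613890-45615490. Its level was 0.298, 1.06, 0.791 and 0.356 CPM in the 4 sham mice, 1.66, 5.60, 1.67 and 2.33 CPM in the CLP mice, and 0.479, 0.739, 9.37 and 0.318 CPM in the CLP+DCA mice. All CLP mice were above all sham mice, and 3 of the 4 CLP+DCA mice were below all CLP mice while replicate 3 was above them. The gene was scarce, with 8 to 43 reads per sham mouse and 52 to 117 reads per CLP mouse. The log2 fold change in CLP versus sham was 2.12 (SE 1.01, 95% interval −0.083 to 4.32, edgeR adjusted p = 0.188). Without CLP+DCA replicate 3 the value was 2.11 (SE 0.50) and passed the test (edgeR adjusted p = 0.0146), and without CLP replicate 2, the highest of its group, it was 1.55. Over all alternatives the adjusted p ran from 0.000912 to 0.417.

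DCA gave a Fgf21 result that turned on that liver. With all 12 mice the log2 fold change in CLP+DCA versus CLP was −0.012 (SE 0.93, 95% interval −2.05 to 2.02, edgeR adjusted p = 0.998). Without replicate 3 it was −2.43 (SE 0.58, edgeR adjusted p = 0.0402), and the 3 remaining mice, at 0.512 ± 0.213 CPM (SD, n = 3), were all within the range of sham. The value in CLP+DCA versus sham was 2.11 with all mice (edgeR adjusted p = 0.397) and −0.32 without replicate 3 (edgeR adjusted p = 0.921). Over all alternatives the adjusted p ran from 0.0351 to 1 against CLP and from 0.211 to 0.969 against sham.

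The receptors of FGF21 and GDF15 formed a list of 8 genes, of which 6 were tested. By edgeR none passed in CLP versus sham, 1 had an unadjusted p under 0.05, and DESeq2 called 0. That gene was Fgfr4, the main FGF receptor of hepatocytes, at 44.7 ± 7.01 CPM in sham and 68.7 ± 21.0 CPM in CLP (log2 fold change 0.62, edgeR adjusted p = 0.139). Without CLP+DCA replicate 3 it was called, beside 23.8% of all genes. Klb, which encodes β-Klotho, was at 31.3 ± 2.52 CPM in sham, 33.6 ± 8.29 CPM in CLP and 24.1 ± 3.88 CPM in CLP+DCA. In CLP+DCA all 4 mice were below all sham mice for Klb, without passing the test (log2 fold change −0.38, edgeR adjusted p = 0.380). The margin was narrow, with the highest CLP+DCA mouse at 28.477 CPM and the lowest sham mouse at 28.493 CPM. Of all genes, 9.76% did not overlap in this comparison. Fap, which encodes a protease that cleaves FGF21, had a log2 fold change of 0.83 in CLP versus sham (edgeR adjusted p = 0.226). Gfral, the receptor of GDF15 in the hindbrain, had 1 read in 1 sham mouse and none in the other 11, and its partner Ret had at most 17 reads in a mouse.

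Gdf15 encodes a TGFβ-like cytokine that suppresses feeding and is made by many stressed cells. Its gene lies at chr8:70629393-70632456. Its level was 12.3, 15.8, 23.4 and 3.47 CPM in sham, 6.06, 4.31, 3.34 and 2.87 CPM in CLP, and 25.7, 10.3, 17.1 and 15.6 CPM in CLP+DCA. The first 3 sham mice were above all CLP mice, sham replicate 4 lay among them, and all CLP+DCA mice were above all CLP mice. The log2 fold change in CLP versus sham was −1.72 (SE 0.48, 95% interval −2.77 to −0.66, edgeR adjusted p = 0.0686), and without sham replicate 4 it was −2.04. DESeq2 gave an adjusted p of 0.00516 for the same 12 mice, at the low end of a range of 0.00231 to 0.163 over all alternatives.

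Between CLP+DCA and CLP, Gdf15 had the highest log2 fold change of the 8, at 2.04 (SE 0.49, 95% interval 0.98 to 3.10, edgeR adjusted p = 0.215). Its p ranked 81 among all genes tested. DESeq2 gave an adjusted p of 0.00408, and without replicate 3 the edgeR value was again 2.04 (edgeR adjusted p = 0.0601), so the difference was as large without that liver. Its adjusted p ran from 3.02e-06 to 0.527 over all alternatives. Against sham the log2 fold change in CLP+DCA was 0.32 (95% interval −0.69 to 1.33, edgeR adjusted p = 0.758). The log2 fold changes of Gdf15 and Fgf21 in CLP versus sham thus had opposite signs.

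The integrated stress response, by which ATF4 induces amino acid and redox genes, is the programme that both Fgf21 and Gdf15 are known to answer to. Its list held 15 genes, of which 14 were tested. In CLP versus sham 13 were higher and 1 lower, by edgeR none passed the test, 3 had an unadjusted p under 0.05 (all higher) and DESeq2 called 2 (higher). The median log2 fold change was 0.36. The 3 were Atf5, a factor downstream of ATF4, from 255 ± 34.0 to 413 ± 59.7 CPM (log2 fold change 0.70, edgeR adjusted p = 0.0995), Psat1 of serine synthesis, from 0.627 ± 0.134 to 5.06 ± 4.40 CPM (2.99, edgeR adjusted p = 0.119), and Asns, asparagine synthetase, from 6.26 ± 4.50 to 24.9 ± 14.2 CPM (1.99, edgeR adjusted p = 0.127). Atf4 itself was at 95.4 ± 2.49 CPM in sham, 109 ± 8.70 CPM in CLP and 98.2 ± 35.8 CPM in CLP+DCA, and Trib3 had a log2 fold change of 0.22 (edgeR adjusted p = 0.670). Without CLP+DCA replicate 3 the fit called Atf5, Asns, Chac1 and Psat1 higher in CLP, beside 23.8% of all genes called in either direction. It called Psat1 lower in CLP+DCA than in CLP, beside 4.64% of all genes called in either direction.

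The p53 targets, a further programme that is known to induce Gdf15, were 9 genes and all were tested. In CLP versus sham none passed edgeR, 3 had an unadjusted p under 0.05 and DESeq2 called 3, all higher. Cdkn1a, the cell cycle inhibitor p21, was at 0.664 ± 0.109 CPM in sham, 39.4 ± 47.1 CPM in CLP and 39.7 ± 71.6 CPM in CLP+DCA, or 3.97 ± 3.71 CPM (SD, n = 3) without replicate 3 (log2 fold change in CLP versus sham 5.87, SE 1.65, edgeR adjusted p = 0.0685). Every CLP mouse, from 5.14 to 108 CPM, was above every sham mouse. Zmat3 was at 7.42 ± 0.449 CPM in sham and 10.1 ± 1.21 CPM in CLP (log2 fold change 0.44, edgeR adjusted p = 0.0802), and Phlda3 was the other gene of low p. Without CLP+DCA replicate 3, Cdkn1a and Zmat3 were called higher in CLP versus sham, beside 23.8% of all genes called in either direction. The median log2 fold change of the 9 was 0.043, beside 0.018 for all genes, and Bax, Ccng1 and Gadd45a were at 0.031, 0.043 and 0.0076.

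Angptl4 encodes a secreted inhibitor of lipoprotein lipase that rises in fasting. Its gene lies at chr17:33774900-33781575. Its level was 34.0, 88.2, 85.2 and 54.0 CPM in sham, 99.5, 209, 156 and 157 CPM in CLP, and 68.0, 113, 85.9 and 92.1 CPM in CLP+DCA. Every CLP mouse was above every sham mouse, and 3 of the 4 CLP+DCA mice were below every CLP mouse. The log2 fold change in CLP versus sham was 1.25 (SE 0.30, 95% interval 0.58 to 1.91), a 2.38-fold difference just outside the threshold (edgeR adjusted p = 0.0516). DESeq2 gave an adjusted p of 0.00225, and edgeR without CLP+DCA replicate 3 gave 0.0192, in a range of 0.00106 to 0.140 over all alternatives. Against CLP the value in CLP+DCA was −0.79 (SE 0.30, 95% interval −1.45 to −0.13, edgeR adjusted p = 0.422), and −0.77 without replicate 3. Against sham it was 0.46 (95% interval −0.20 to 1.11, edgeR adjusted p = 0.516).

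Angptl8 encodes a feeding-induced hepatokine that acts on lipoprotein lipase. Its gene, at chr9:21835510-21837347, lies inside Dock6 on the opposite strand, and the library kit does not mark strand. Its exons share 0 bases with the exons of Dock6 in GENCODE vM21, and the annotation used for counting is not given in the sources used here, so reads from unspliced Dock6 RNA cannot be told apart. Dock6 was at 17.6 ± 2.04 CPM in sham, 17.0 ± 3.00 CPM in CLP and 14.9 ± 3.03 CPM in CLP+DCA (log2 fold change in CLP versus sham −0.048, edgeR adjusted p = 0.862). The level of Angptl8 was 88.3, 40.7, 71.7 and 21.3 CPM in sham, 46.8, 9.14, 20.1 and 26.6 CPM in CLP, and 76.5, 36.5, 27.3 and 19.7 CPM in CLP+DCA. The groups overlapped in all comparisons, with means of 55.5 ± 30.1, 25.7 ± 15.8 and 40.0 ± 25.3 CPM. Its log2 fold change was −1.11 in CLP versus sham (SE 0.56, 95% interval −2.34 to 0.13, edgeR adjusted p = 0.213), and 0.63 in CLP+DCA versus CLP (95% interval −0.59 to 1.86, edgeR adjusted p = 0.734), or 0.78 without replicate 3 (edgeR adjusted p = 0.444, in a range of 0.309 to 0.981 over all alternatives).

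The lipoprotein lipase system, on which both proteins act, was a list of 9 genes and all were tested. In CLP versus sham edgeR called 1 lower and none higher, and the median log2 fold change was −0.47. The called gene was Apoc3, an apolipoprotein that inhibits lipolysis, at 1151 ± 119 CPM in sham and 654 ± 43.9 CPM in CLP (log2 fold change −0.81, SE 0.16, edgeR adjusted p = 0.0366). Lipc, hepatic lipase, was at 95.2 ± 13.4 CPM in sham and 25.5 ± 15.3 CPM in CLP (−1.89, edgeR adjusted p = 0.0634), and Apoa5, an activator of lipoprotein lipase, had a log2 fold change of −0.47 (edgeR adjusted p = 0.103). Lpl was at 16.1 ± 7.06 CPM in sham and 40.3 ± 56.5 CPM in CLP, with 125 CPM in its highest mouse. Its medians were 16.3 CPM in sham and 12.7 CPM in CLP. Between CLP and sham the means of Angptl4 and Angptl8 thus differed in opposite directions, with overlapping mice for Angptl8.

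The genes that insulin and glucose switch on in liver were a list of 9 and all were tested. In CLP versus sham 3 fell by edgeR and none rose, and in all 8 were lower and 1 was higher, with a median log2 fold change of −0.67. Thrsp, a lipogenic factor, fell from 99.4 ± 28.6 to 14.7 ± 5.85 CPM (log2 fold change −2.75, SE 0.48, edgeR adjusted p = 0.0255). Srebf1, the sterol and insulin responsive factor, fell from 336 ± 22.0 to 87.6 ± 39.9 CPM (−1.94, SE 0.45, edgeR adjusted p = 0.0475), and Pklr, liver pyruvate kinase, from 70.5 ± 15.1 to 44.2 ± 6.38 CPM (−0.67, SE 0.16, edgeR adjusted p = 0.0479). In CLP+DCA the same genes were at 54.1 ± 32.6, 191 ± 98.9 and 54.9 ± 6.62 CPM, between the means of CLP and sham. None of the 9 passed edgeR against CLP with all 12 mice, with 2 at an unadjusted p under 0.05 (higher) and 1 called by DESeq2 (higher), and 5 were higher and 4 lower. Without replicate 3, Thrsp, at a log2 fold change of 2.16 (edgeR adjusted p = 0.0205), and Srebf1, at 1.44 (edgeR adjusted p = 0.0281), were called higher in CLP+DCA than in CLP, beside 4.64% of all genes. The order of the Angptl8 means was sham above CLP+DCA above CLP, with overlapping mice.

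PPARα and its targets, the fasting programme that is known to control Fgf21 and Angptl4, were 14 genes and all were tested. By edgeR none passed in CLP versus sham, 2 had an unadjusted p under 0.05 in each direction, and DESeq2 called 1 higher and 1 lower. Ppara was at 334 ± 58.0 CPM in sham and 188 ± 47.6 CPM in CLP, and all CLP mice were below all sham mice (log2 fold change −0.83, edgeR adjusted p = 0.0869). Pdk4, a kinase that shuts off pyruvate dehydrogenase, is an isoform of the enzyme that DCA inhibits. It ranged from 2.57 to 3.01 CPM in sham and from 2.67 to 151 CPM in CLP (log2 fold change 4.03, edgeR adjusted p = 0.0695). Its CLP median was 13.8 CPM beside a mean of 45.4 CPM, which the highest mouse led. Creb3l3, a fasting factor that also controls Fgf21, had a log2 fold change of 0.40 (edgeR adjusted p = 0.125), and Cpt1a, which brings fatty acids into mitochondria, −0.017 (edgeR adjusted p = 0.956). Of the 14 genes, 9 were higher and 5 lower in CLP versus sham, with a median log2 fold change of 0.16. The part of PPARα in the levels of Angptl4 and Fgf21 was not tested.

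**Figure D2:**
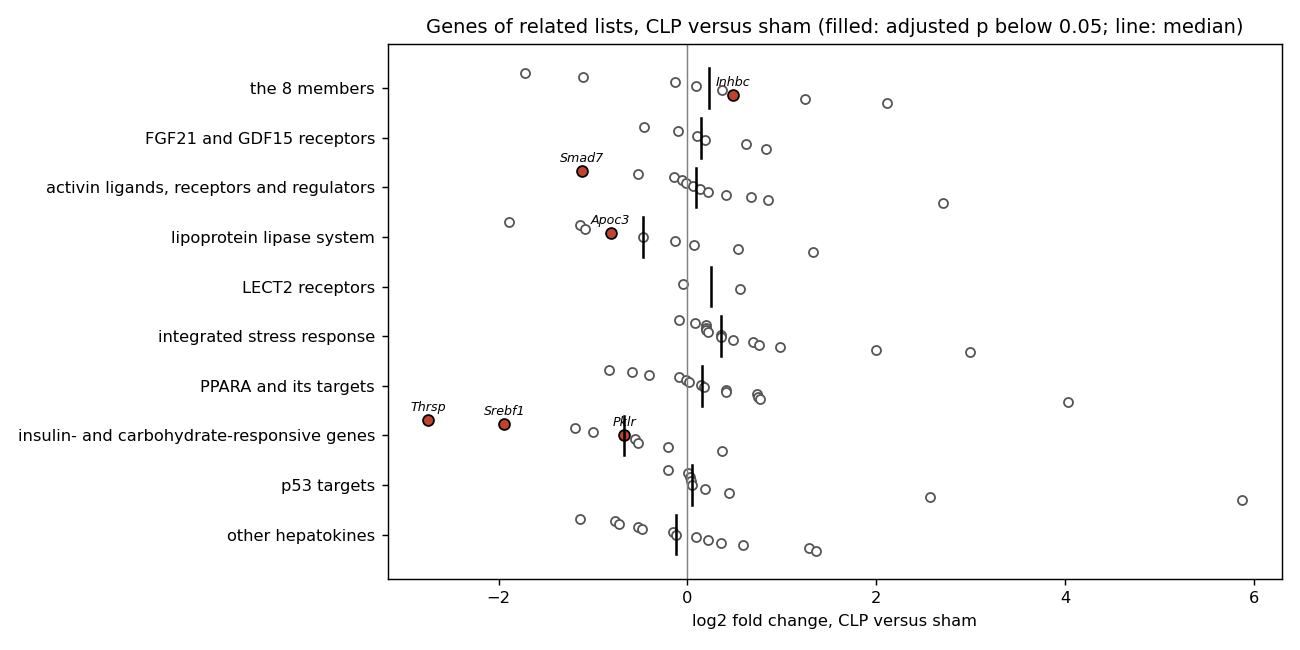
Log2 fold change in CLP versus sham (x axis) of every tested gene of each list, 1 point per gene, with the median of the list as a line. Filled points, named, passed edgeR's test at an adjusted p below 0.05: Inhbc among the members, Smad7, Apoc3, Thrsp, Srebf1 and Pklr.

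Inhbc encodes the βC subunit of activin C, a hepatocyte product. Its gene lies at chr10:127356322-127370548. Its level was 91.4, 98.6, 106 and 83.1 CPM in sham, 138, 125, 123 and 142 CPM in CLP, and 97.6, 109, 107 and 89.6 CPM in CLP+DCA. All CLP mice were above all mice of both other groups, and CLP+DCA overlapped sham. The mean rose from 94.7 ± 9.66 CPM in sham to 132 ± 9.37 CPM in CLP, a log2 fold change of 0.48 (SE 0.10, 95% interval 0.25 to 0.70, edgeR adjusted p = 0.0415) or 1.39-fold. This was a small difference with little spread, and it was the only call among the members. It passed in 11 of 23 alternatives, in which the log2 fold change was 0.30 to 0.53 and the adjusted p 0.000246 to 0.117.

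With DCA the Inhbc mean was 101 CPM. Its log2 fold change versus CLP was −0.39 (SE 0.10, 95% interval −0.61 to −0.16, edgeR adjusted p = 0.284), and DESeq2 gave an adjusted p of 0.0369. Without replicate 3 it was −0.42 (edgeR adjusted p = 0.0515), and over all alternatives the adjusted p ran from 0.0202 to 0.661. Versus sham it was 0.090 (95% interval −0.14 to 0.32, edgeR adjusted p = 0.699). The CLP value of Inhbc was thus above both other groups, which did not differ beyond their spread.

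Inhbe encodes the βE subunit of activin E, a hepatokine that restrains fat breakdown in adipose tissue. It is the neighbour of Inhbc on the same strand, at chr10:127349402-127351848, with 4473 bases between the genes. Its level was 47.8, 86.5, 50.7 and 20.6 CPM in sham, 60.1, 62.6, 75.2 and 67.7 CPM in CLP, and 41.7, 46.6, 87.7 and 49.2 CPM in CLP+DCA. The sham mice covered the range of CLP from below and above, and CLP+DCA replicate 3 was the highest of all 12. Inhbe had a log2 fold change of 0.37 in CLP versus sham (95% interval −0.41 to 1.14, edgeR adjusted p = 0.494). Between CLP+DCA and CLP it was −0.24 (95% interval −1.01 to 0.54, edgeR adjusted p = 0.853), and −0.54 without replicate 3 (edgeR adjusted p = 0.334), where all 3 remaining mice were below all CLP mice, and its adjusted p was 0.296 to 0.977 over all alternatives.

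Fst encodes follistatin, which binds and neutralizes activins. Its gene lies at chr13:114452262-114458951. Its level was 5.43, 4.58, 2.85 and 10.9 CPM in sham, 3.55, 8.38, 3.29 and 6.69 CPM in CLP, and 2.08, 3.13, 20.7 and 2.58 CPM in CLP+DCA. Sham and CLP overlapped, and CLP+DCA replicate 3 was above all other mice while the other 3 of its group were below all CLP mice. The log2 fold change in CLP versus sham was −0.13 (95% interval −1.70 to 1.44, edgeR adjusted p = 0.913). Between CLP+DCA and CLP it was 0.40 (edgeR adjusted p = 0.879) with all mice and −1.06 without replicate 3 (edgeR adjusted p = 0.169). Between CLP+DCA and sham it was 0.27 (edgeR adjusted p = 0.873) with all mice and −1.20 without replicate 3 (edgeR adjusted p = 0.466). Over all alternatives the adjusted p was 0.169 to 0.999 against CLP and 0.147 to 0.988 against sham.

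Among 15 activin ligands, receptors and regulators, 12 were tested. In CLP versus sham edgeR called 1 lower and none higher, with a median log2 fold change of 0.094. The called gene was Smad7, an inhibitor of TGFβ and activin signals that these signals themselves induce, which fell from 13.6 ± 0.439 to 6.24 ± 0.495 CPM (log2 fold change −1.12, SE 0.20, edgeR adjusted p = 0.0257). In CLP+DCA it was at 9.33 ± 3.33 CPM. Inhbb, the βB subunit, was at 0.372 to 2.35 CPM in sham and 5.20 to 19.1 CPM in CLP, without overlap (log2 fold change 2.71, SE 0.98, edgeR adjusted p = 0.106). In CLP+DCA replicate 3 had 28.8 CPM, and the others were at 1.53 to 2.82 CPM. Inhba, the βA subunit, had a log2 fold change of 0.41 (edgeR adjusted p = 0.207), and the co-receptor Tgfbr3 one of 0.68 (edgeR adjusted p = 0.145). Without CLP+DCA replicate 3, Inhbb, Acvr1b and Tgfbr3 were called higher and Smad7 lower in CLP versus sham, beside 23.8% of all genes.

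Lect2 encodes a chemotactic factor that hepatocytes secrete. Its gene lies at chr13:56542460-56548538. Its level was 79.4, 69.5, 73.8 and 46.7 CPM in sham, 60.2, 66.5, 85.1 and 75.3 CPM in CLP, and 79.7, 73.3, 33.0 and 70.05 CPM in CLP+DCA. All groups overlapped, and CLP+DCA replicate 3 was the lowest of the 12 mice. Its log2 fold change was 0.092 in CLP versus sham (95% interval −0.45 to 0.64, edgeR adjusted p = 0.824), with its sign turned to −0.077 when libraries were scaled by size alone. Between CLP+DCA and CLP it was −0.17 (95% interval −0.71 to 0.38, edgeR adjusted p = 0.854), and 0.050 without replicate 3. Of 3 LECT2 receptors 2 were tested and none passed by edgeR or DESeq2 in CLP versus sham, with 1 at an unadjusted p under 0.05. Tie1, the endothelial receptor, was at 7.39 ± 1.25 CPM in sham and 10.9 ± 1.85 CPM in CLP (log2 fold change 0.56, edgeR adjusted p = 0.120), and Met had a log2 fold change of −0.052 (edgeR adjusted p = 0.853).

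With DCA no member passed edgeR's test, in CLP+DCA versus sham or in CLP+DCA versus CLP. Over all genes 0.0379% passed in the former and 0.00758% in the latter. Against sham no member had an unadjusted p under 0.05, beside 8.14% of all genes that were higher and 4.85% that were lower, none was free of overlap, beside 9.76%, and DESeq2 called none, beside 1.83%. Without replicate 3 edgeR again called none of them, beside 0.0828% of all genes. Against CLP, 1 member was higher (Gdf15) and 2 lower (Angptl4 and Inhbc) at an unadjusted p under 0.05, beside 5.06% and 4.94% of all genes. Gdf15 (higher) and Inhbc (lower) did not overlap, beside 4.37% of all genes, and both were called by DESeq2, beside 0.815%. Without replicate 3, Fgf21, Gdf15, Inhbe, Inhbc and Fst did not overlap between CLP+DCA and CLP, beside 22.7% of all genes, and Fgf21 was called, beside 4.64%. No gene of the lists was called by edgeR in either comparison with all 12 mice.

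**Figure D3:**
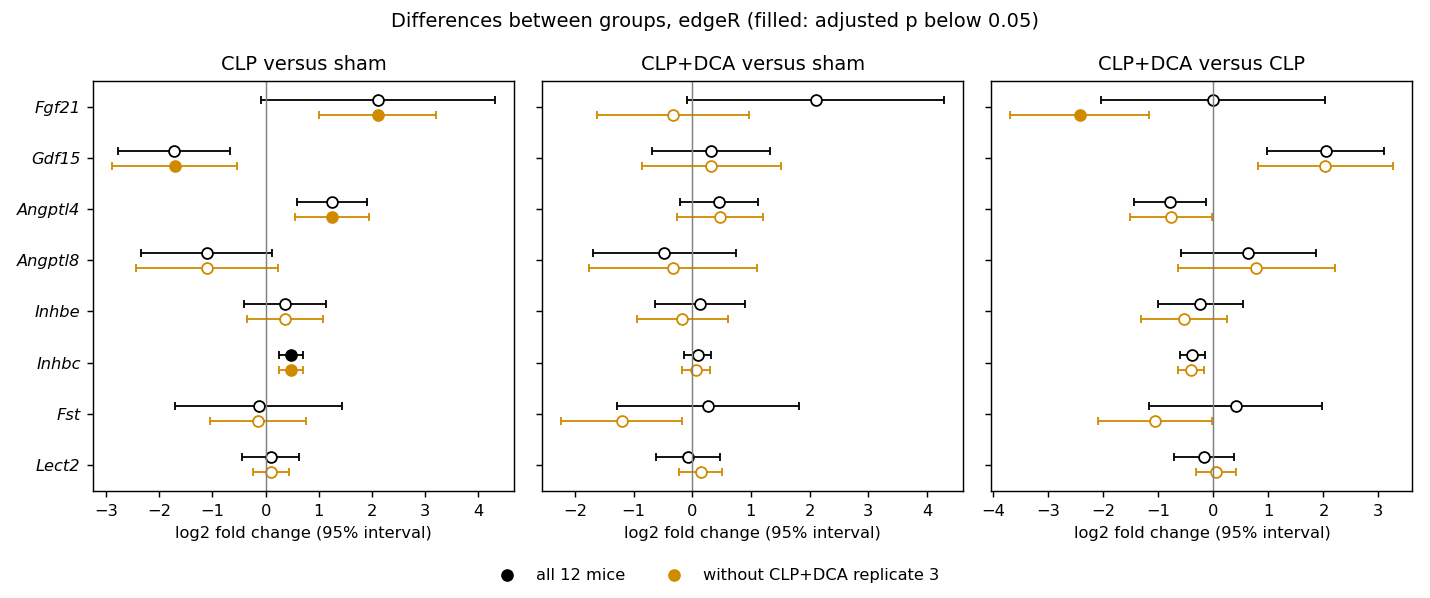
Log2 fold change of each member in the 3 comparisons (x axis, points) with its 95% interval (bars), from edgeR on all 12 mice (black) and without CLP+DCA replicate 3 (orange), filled where the adjusted p was below 0.05. Fgf21 in CLP+DCA versus CLP was at −0.012 with all mice and at −2.43 without replicate 3, while Gdf15 was at 2.04 in both.

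The comparisons of CLP versus sham and CLP+DCA versus CLP share the CLP mice, so their values stand side by side only. For Gdf15 they were −1.72 and 2.04, for Angptl4 1.25 and −0.79, for Inhbc 0.48 and −0.39, and for Angptl8 −1.11 and 0.63. For Fgf21 they were 2.12 and −0.012, and 2.11 and −2.43 without replicate 3. The extremes of a group fell on particular mice. Sham replicate 4 was the lowest of its group for 5 of the 8 genes (Gdf15, Angptl8, Inhbe, Inhbc and Lect2) and the highest for Fst, and CLP+DCA replicate 3 was the highest of its group for Fgf21, Inhbe and Fst and the lowest for Lect2.

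For each member the genes with the most similar profile were named by the smallest mean absolute difference in log2 CPM, less the sham mean, over the 12 mice. Only genes with a mean of at least 5 CPM in any of the groups were compared. These genes were chosen for values near the member's own in the same 12 mice. Their group differences and p-values therefore restate its profile and are no separate evidence. Fgf21 was nearest to Tnfrsf12a, the receptor of TWEAK (0.43 log2 units), and Col4a1, a basement membrane collagen (0.47). Both were high in CLP+DCA replicate 3, with Tnfrsf12a at 62.0 CPM there, and higher in all CLP than in all sham mice. Gdf15 was nearest to Bhlhe40, a clock repressor (0.53), and Oasl1, an interferon-induced gene (0.55), both lower in all CLP mice than in all mice of the other groups. Oasl1 fell in CLP versus sham (log2 fold change −0.88, SE 0.17, edgeR adjusted p = 0.0294), and in CLP+DCA versus CLP it was at 1.10 (edgeR adjusted p = 0.0718), or 1.11 without replicate 3 (edgeR adjusted p = 0.0158). Bhlhe40 was at 1.65 in that comparison (edgeR adjusted p = 0.122), or 1.29 without replicate 3 (edgeR adjusted p = 0.0158).

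Angptl4 was nearest to Nlrp12, an innate immune regulator, and Crat, carnitine acetyltransferase (0.31 for both). Both rose in CLP versus sham, Nlrp12 by a log2 fold change of 1.44 (SE 0.20, edgeR adjusted p = 0.0129) and Crat by 1.27 (SE 0.25, edgeR adjusted p = 0.0355). Both were chosen for a profile near that of Angptl4, so these and the following values restate that profile. Against CLP the CLP+DCA values were −0.71 and −1.16 without passing (edgeR adjusted p = 0.306 and 0.178), and all CLP+DCA mice were below all CLP mice for both. Without replicate 3 they were called lower, at −0.88 and −1.44 (edgeR adjusted p = 0.0292 and 0.0116). Angptl8 was nearest to Aqp8, a water channel (0.49), which fell in CLP versus sham (log2 fold change −1.54, edgeR adjusted p = 0.0464), and to 1700001C19Rik (0.56).

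Inhbe was nearest to Ube2e2, a ubiquitin-conjugating enzyme (0.21). Inhbc was nearest to Uxs1, which makes UDP-xylose (0.083), and Idua, a lysosomal hydrolase (0.086), at log2 fold changes of 0.40 and 0.46 in CLP versus sham (edgeR adjusted p = 0.0560 and 0.0580). Fst was nearest to Efna3, an ephrin (0.46), and Pspc1 (0.47). Pspc1 reached a mean of 5 CPM in CLP+DCA only, at 5.79 CPM, or 3.29 CPM without replicate 3. Lect2 was nearest to Ntpcr and Borcs5 (0.14 for both). The median over all genes compared was 0.31 for Inhbc and 1.35 for Fgf21, so that these distances depend on how far the member itself ranges and are not comparable between members.

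**Figure D4:**
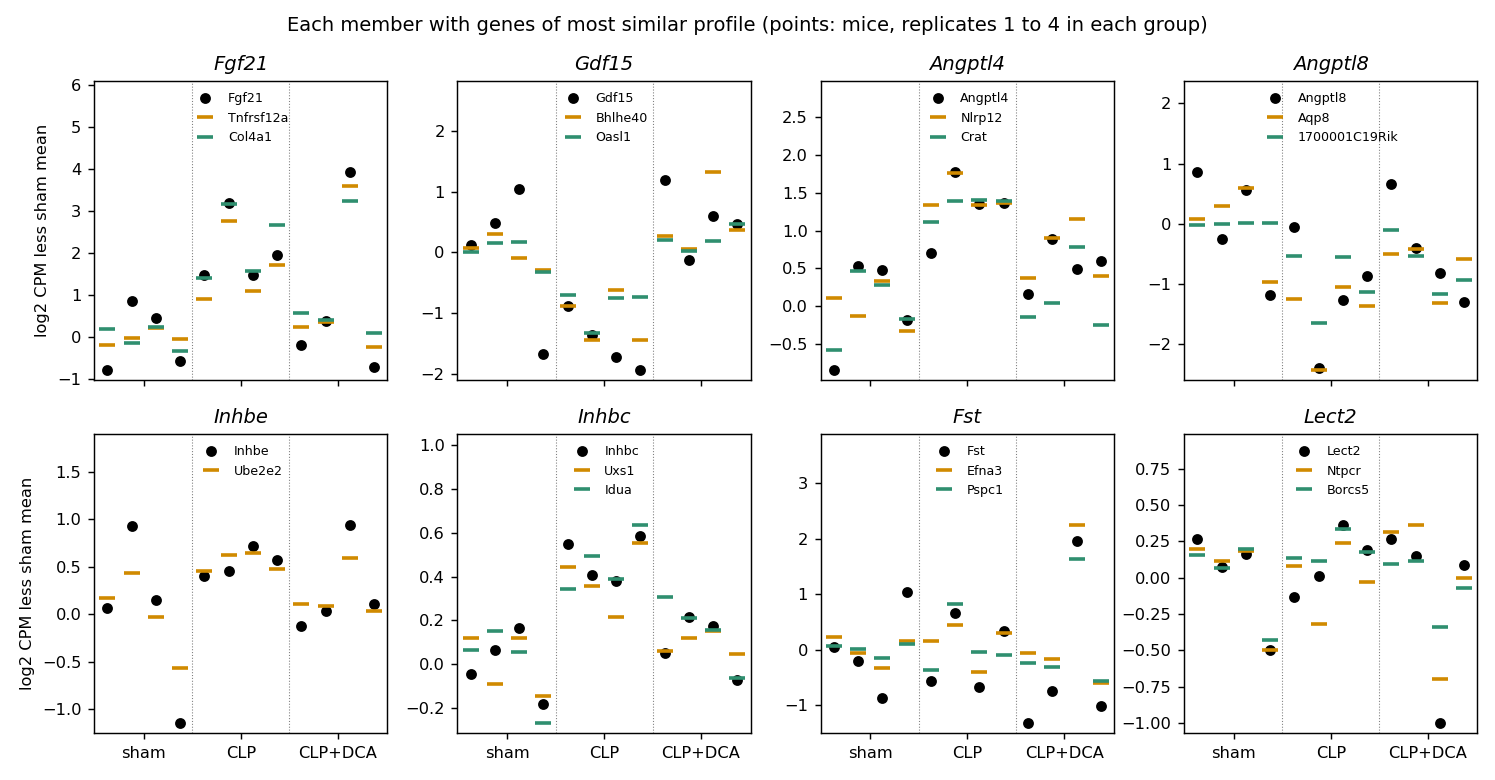
Log2 CPM less the sham mean (y axis) of each member (black points) and of its nearest genes (coloured bars) in the 12 mice, with replicates 1 to 4 of sham, CLP and CLP+DCA from left to right. Tnfrsf12a and Col4a1 lay near Fgf21 at 0.43 and 0.47 log2 units on average, and both were high with it in CLP+DCA replicate 3. The genes were chosen by this nearness, so their likeness to the member is no separate result.

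Other hepatokines, a list of 13 genes fixed beside the members, had no call by edgeR in CLP versus sham, 3 at an unadjusted p under 0.05 (all higher) and 2 by DESeq2 (higher). The median log2 fold change was −0.12. Fgl1, a liver regenerative factor and immune checkpoint ligand, was at 2075 ± 168 CPM in sham and 3117 ± 332 CPM in CLP, without overlap (log2 fold change 0.59, SE 0.15, edgeR adjusted p = 0.0550). Manf, a factor secreted under ER stress, was at 93.7 ± 21.1 CPM in sham and 240.0 ± 122 CPM in CLP (1.36, edgeR adjusted p = 0.0804), and Smoc1 had a log2 fold change of 0.35 (edgeR adjusted p = 0.105). Without CLP+DCA replicate 3, Fgl1, Manf and Smoc1 were called higher and Rbp4, the retinol carrier, lower, beside 23.8% of all genes.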

How the data were processed

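Whole-liver RNA of 12 mice (4 sham, 4 CLP, 4 CLP+DCA) was measured. The authors made TruSeq V2 libraries, which do not mark strand, and the submitters' processing notes name STAR 2.5, featureCounts of Subread 1.5.0-p1, DESeq2 and mm10; the annotation and strand setting are not given in the sources used here. The deposited values are unnormalized read counts per gene, and all 12 columns were matched to mice by their labels. Each mouse was 1 replicate.

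In R 4.3.3, counts were filtered with filterByExpr of edgeR 4.0.16 (minimum count 10), TMM-normalized and fitted with robust quasi-likelihood models over the 12 mice. Calls were made at 0.05 after Benjamini-Hochberg adjustment. The standard error is the log2 fold change divided by the square root of F. CPM refers to TMM library sizes, and log2 CPM to a prior count of 2. Depth was 24436513 to 44266819 reads, and without molecular identifiers counting error is a lower limit. Scripts were tested on simulated counts with 4-fold and 2-fold changes placed in CLP only. In CLP versus sham edgeR on 12 mice recovered 85 of 99 4-fold and 54 of 98 2-fold changes, with 12 wrong calls. DESeq2 on 12 mice recovered 90 of 100 and 67 of 100, with 28 wrong calls. In CLP+DCA versus sham, where nothing was changed, edgeR called 0 genes and DESeq2 called 7. Simulated counts were drawn for each gene on its own, so no simulated liver stood apart across genes as CLP+DCA replicate 3 did. These counts therefore do not give the recovery in the measured livers. Alternatives were other normalizations and filters, DESeq2 1.42.0, voom with sample quality weights of limma 3.58.1, 8 mice, a replicate block and leaving out each mouse. The members and gene lists were chosen with earlier results of these data known. Named are all members, for each list the called genes, the genes of smallest p in CLP versus sham and the regulators or receptors a paragraph needs, and for each member the 2 genes of most similar profile. The values of the lists and other named genes without CLP+DCA replicate 3 were added after seeing the data. Some genes that this rule names are not reported here.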

Additional observations from a re-analysis of the deposited data

Results flagged for a closer look

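Each of the 8 genes was checked for a mouse far from the others in each group, 24 checks in all, by Dixon's ratio, and chance alone marks about 1 in 20. The ratio was above its critical value in 3 checks, all for CLP+DCA replicate 3. Its Fgf21 level was 9.37 CPM, against 0.318 to 0.739 CPM in the other mice of its group. Its Inhbe level was 87.7 CPM, against 41.7 to 49.2 CPM. Its Fst level was 20.7 CPM, against 2.08 to 3.13 CPM. The summed neutrophil markers of this liver were at 49.0 CPM and its summed hepatocyte markers at 26074 CPM, and their part in these values was not tested.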

How the results depend on the processing

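The 8 genes in 3 comparisons gave 547 values under alternative settings, of which 485 kept direction and side of the threshold, 22 newly passed it, 12 no longer passed it and 28 changed sign; the 12 all belong to Inhbc in CLP versus sham. Members called in CLP versus sham, 1 in the main result, were 0 with library size alone or no filter, 2 with a filter of 1 CPM, 3 with edgeR on 8 mice, DESeq2 on 12 mice, voom or an FDR of 0.1, 4 with DESeq2 on 8 mice, and 0 to 4 when a mouse was left out (4 without CLP+DCA replicate 3). In CLP+DCA versus CLP, 0 in the main result, they were 2 with DESeq2 on 12 mice or voom, 1 with DESeq2 on 8 mice, and 0 to 1 when a mouse was left out. All genes called, 367 in CLP versus sham, 5 in CLP+DCA versus sham and 1 in CLP+DCA versus CLP, were 209 and 3 with library size alone in the first 2, 122 with no filter in the first, 2387, 0 and 0 with edgeR on 8 mice, 1894, 247 and 136 with DESeq2 on 12 mice, 3428, 169 and 80 with DESeq2 on 8 mice, 3417, 473 and 1287 with voom, and 2022 and 6 in the first and last at an FDR of 0.1. They were 10 to 3157, 1 to 11 and 0 to 616 when a mouse was left out, and the first and last were highest without CLP+DCA replicate 3; the second was 11 without CLP+DCA replicate 3 or replicate 4. The cause was not tested.

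With the replicate block, 46, 0 and 4 genes passed, and of the members Inhbc no longer passed (adjusted p = 0.0998) while Angptl4 did (adjusted p = 0.0262) in CLP versus sham, and Fst in CLP+DCA versus sham turned to −0.14. The numbers did not pair the mice: correlations of same-numbered deviations were −0.0544 to 0.0898, −0.16 to 0.0938 and −0.459 to 0.55, and 2, 0 and 1 of 4 mice correlated best with their own number.

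Signs changed as follows. With voom, Lect2 in CLP versus sham was −0.0094, Fgf21, Inhbe, Fst and Lect2 in CLP+DCA versus sham −0.050, −0.16, −1.07 and 0.12, and Fst and Lect2 in CLP+DCA versus CLP −0.82 and 0.13. With library size alone, which moves the median of all genes to −0.154 in CLP versus sham and 0.119 in CLP+DCA versus CLP, Lect2 was −0.077 in the former and Fgf21 0.037 in the latter. When a mouse was left out, CLP versus sham ran from −0.41 to 0.34 for Fst and −0.050 to 0.18 for Lect2. CLP+DCA versus sham ran from −0.32 to 2.498 for Fgf21, −0.0012 to 0.70 for Gdf15, −0.17 to 0.50 for Inhbe, −1.20 to 0.74 for Fst and −0.22 to 0.14 for Lect2. CLP+DCA versus CLP ran from −2.43 to 0.55 for Fgf21, −1.06 to 0.70 for Fst and −0.29 to 0.050 for Lect2. The planned permutation test for members under the filter was not run, since all 8 passed. DESeq2 gave a log2 fold change but no p for Fgf21 on 12 mice, of which CLP+DCA replicate 3 had 346 reads. The reason for the missing p was not tested. Apart from this, Fgf21, with as few as 8 reads in a mouse, is the member that depth limits most.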
